A study of Mus musculus with 23 samples.

Results

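The genes described here encode the proteins of the cytosolic ribosome in mouse bone marrow cells. They were chosen by symbol: every row of the expression table named as a large-subunit protein (Rpl, with the stalk proteins Rplp0, Rplp1 and Rplp2) or a small-subunit protein (Rps, with Rpsa), without pseudogene symbols and without the S6 kinase genes. This gave 84 members of 23536 gene rows, 51 of the large and 33 of the small subunit. Over all cells with at least 1000 transcripts, the members made up 15.2% of transcripts, and in single cells from 0.384% to 41.6%, with a median of 13.8%.

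A ribosome joins a small subunit, which reads the mRNA, to a large subunit, which forms the peptide bond, and most of its proteins are present in a single copy per particle. The genes are expressed together, and their mRNAs begin with a C followed by a run of pyrimidines, the 5′ terminal oligopyrimidine (TOP) tract, through which mTOR signalling and Larp1 set their translation. Growing blood progenitors need many ribosomes, while late erythroblasts and neutrophils are smaller cells that stop dividing. Erythroid cells are known to be sensitive to ribosomal protein dose: loss of a copy of RPS19, RPL5, RPL11 or RPL35A causes Diamond-Blackfan anaemia, and loss of a copy of RPS14 belongs to the 5q- syndrome.

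The study profiled mouse bone marrow cell by cell with CEL-seq, which tags each mRNA molecule at random and counts it by its 3′ end, whatever its length. In 18 libraries of 96 wells, cells came from small clumps of marrow that had been pulled apart with needles to record which cells had been attached. The other 5 libraries held haematopoietic stem cells (HSC), obtained by a sort for lineage-negative, Kit+, Sca1+, CD150+ and CD48- cells. The labels gave no strain, age, genotype or number of animals, so the spread between libraries may be technical.

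The table held 17 dissected libraries and 4 sorted ones. At least 1000 transcripts were found in 707 of 1546 dissected cells and 245 of 369 sorted cells, 2 to 91 cells per library, and their sums ran from 3119 to 313488 transcripts per library. No cell column occurred more than once. Sorted HSC replicate 1 kept 2 cells, and a cluster of 36 cells with no marker list leading, found only in dissected replicates 1, 3 and 5, was left unnamed. The HSC marker list summed to 67.6 to 107 transcripts per 10,000 in sorted libraries against 3.33 to 23.0 in dissected ones, so the sort carried its label. Dissected cells were clustered without the members and named from marker lists, and "-like" marks such names. Erythroblast-like cells were split into early, with more Car1 (carbonic anhydrase 1) than Slc4a1, and late, with at least as much Slc4a1 (the anion exchanger band 3). Of 234 erythroblast-like cells, 7 lay near that boundary.

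To show the features named above, the starts of 4 members are printed from RefSeq (GRCm38.p6), 60 bases before and 20 bases from the annotated start, on the gene's strand, with a TOP tract at the start or the letters CCGGAAG in capitals. Rpl14 (chr9:120571457-120571536, plus strand) had the largest change of the erythroid lineage below. Rpl15 (chr14:18270967-18271046, minus strand) had the second largest change of the neutrophil lineage, and Rpl35a (chr16:33056422-33056501, plus strand, 1 of its 3 annotated starts) the second smallest. Rpl38 (chr11:114668520-114668599, plus strand) holds both motifs.
Rpl14: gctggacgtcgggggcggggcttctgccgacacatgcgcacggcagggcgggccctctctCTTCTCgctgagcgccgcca
Rpl15: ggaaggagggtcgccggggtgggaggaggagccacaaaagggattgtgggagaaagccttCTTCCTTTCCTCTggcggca
Rpl35a: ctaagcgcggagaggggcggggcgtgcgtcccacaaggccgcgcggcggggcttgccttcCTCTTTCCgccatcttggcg
Rpl38: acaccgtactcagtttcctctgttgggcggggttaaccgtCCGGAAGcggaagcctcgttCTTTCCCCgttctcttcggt
Of the 84 members, 63 were matched in the promoter table. A C followed by at least 4 pyrimidines at the annotated start was found in 13 of them (20.6%), against 3.01% of 27025 genes. The letters CCGGAAG, the core bound by ETS-family factors, occurred on either strand of the 300-base promoter in 26 of 63 (41.3%), against 9.93% of genes. A tract shifted by a base from the annotated start was not counted. Members with the tract at the start had a median log2 fold change of −0.92 in the erythroid step described below (n = 11) and members without it −0.95 (n = 42). In the neutrophil step the medians were −1.10 and −0.99.

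The ribosomal protein share of transcripts was highest in HSC and early erythroid cells and lowest in mature neutrophils and megakaryocytes. Summed per library and class with at least 5 cells, it was 24.8% ± 5.63 in sorted HSC (SD, n = 3), 25.03% ± 1.10 in early erythroblast-like (n = 2) and 20.0% ± 1.04 in monocyte and dendritic-like cells (n = 4). It was 17.4% ± 3.04 in promyelocyte-like (n = 7), 11.4% ± 2.99 in eosinophil-like (n = 3) and 11.4% ± 4.16 in late erythroblast-like cells (n = 10). It was 6.95% ± 1.12 in myelocyte-like (n = 12) and 3.42% ± 1.70 in mature neutrophil-like cells (n = 7). The widest exact binomial interval of these shares spanned 1.44 percentage points (95%, counting error only), so the spread between libraries was mostly wider than the counting error. In the order of the means, the ranges of all neighbouring classes overlapped. With at least 3 cells, the eosinophil-like mean was 13.9% ± 2.88 (n = 11) and the late erythroblast-like mean 12.2% ± 4.72 (n = 11). The median late erythroblast-like cell had 7.30%, below the mean of the sums, and the reason for this gap was not tested.

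**Figure D1:**
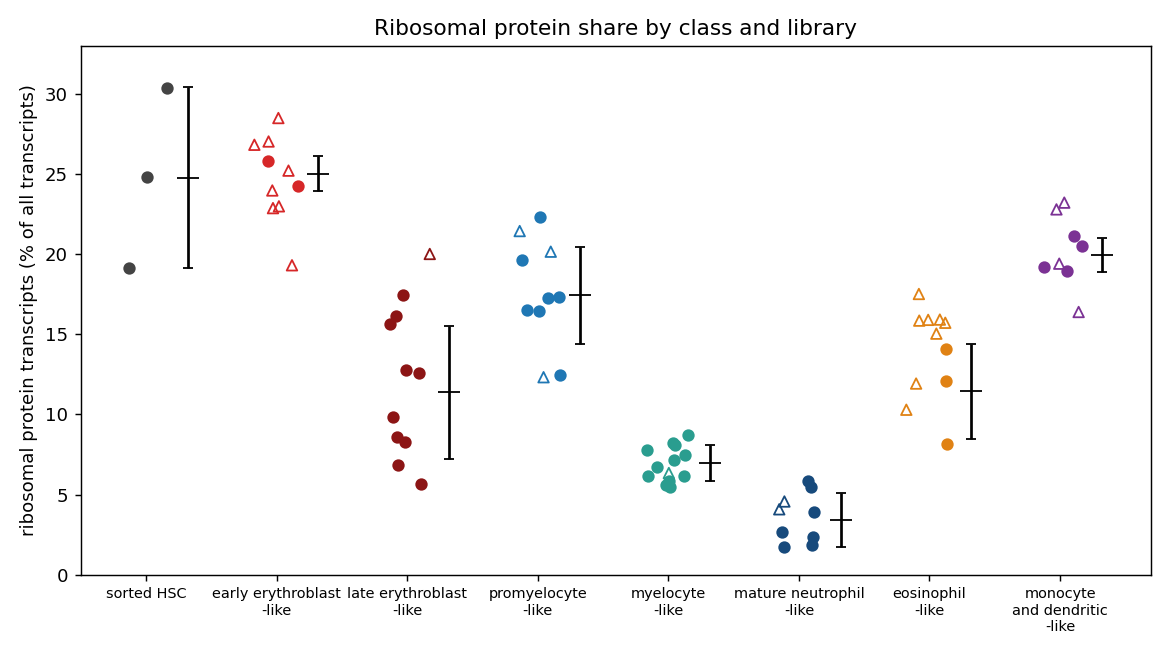
Ribosomal protein transcripts as a percentage of all transcripts (y axis) for each class (x axis). Each point is a library with at least 5 cells of the class and bars show the mean and SD. HSC and early erythroblast-like sums have the highest means and mature neutrophil-like sums, at 1.75% to 5.85%, the lowest.

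Because several classes were present in the same dissected libraries, their order could be compared within a library. With at least 3 cells of each class, the share in early erythroblast-like cells was above that in late ones in 9 of 9 libraries, by 3.96 to 17.4 percentage points. It was above that in promyelocyte-like cells in 7 of 7. Promyelocyte-like cells were above myelocyte-like cells in 10 of 10 libraries, by 6.63 to 14.3 points, and myelocyte-like above mature neutrophil-like cells in 9 of 9, by 2.07 to 4.87 points. Eosinophil-like cells were above myelocyte-like cells in 11 of 11 libraries. Promyelocyte-like cells were higher than monocyte and dendritic-like cells in 2 of 6 libraries and lower in 4, so these classes had no common order.

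Rarer classes had few cells. In 8 megakaryocyte-like cells the share was 0.384% to 2.77% with a median of 0.722%, although these were among the deepest cells, with a median of 10272 transcripts. Macrophage-like cells had 6.86% ± 1.46 (n = 3 libraries with at least 3 cells). Plasma cell-like cells had 12.01% and 17.1% in the 2 libraries that held 3 cells, and skeletal muscle-like cells 13.4% in 1 library. The unnamed cluster had 10.0% and 11.8%, with globins at 12.4% and 13.4% of its transcripts.

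Within the erythroid lineage, the share was lower in each cluster of a later stage. Ordered by Car1 from 22.3 to 1.51 transcripts per 10,000, the 4 erythroblast-like clusters had median cell shares of 25.4%, 19.9%, 8.02% and 3.89%. Slc4a1 went from 3.26 through 30.3 and 64.3 to 77.1 per 10,000 along them, and globins from 0.609% to 26.1% of transcripts. The number of member transcripts in the median cell went from 1643 through 538 and 142 to 58.8. Depth moved with the stage, with median totals of 6760, 2738, 1776 and 1440 transcripts, and its part in the result was not tested. With globins left out of the total, the late erythroblast-like share was 13.6% ± 4.72 (n = 10), still below the 25.5% ± 0.666 of early cells (n = 2).

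The neutrophil lineage showed the same order of shares against its granule genes. Along 5 clusters, the promyelocyte list (Mpo, Elane, Prtn3 and others) summed to 412, 181, 27.5, 15.1 and 23.6 per 10,000. The mature list (Retnlg, Mmp9, Cxcr2 and others) summed to 16.8, 17.3, 21.4, 60.5 and 462. The median cell share was 19.2%, 13.7%, 7.22%, 3.76% and 2.87%, so it was already low in clusters where the mature genes were not yet high. The median totals were 5436, 5942, 3075, 2154 and 1456 transcripts, lowest where the share was lowest, and the part of depth was not tested. Within promyelocyte-like cells, the Spearman correlation of share with total was 0.00302 over 72 cells of 15 libraries, and within late erythroblast-like cells it was 0.493 over 192 cells of 15 libraries. Clusters were made from genes outside the members, but cells of a plate share a library.

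**Figure D2:**
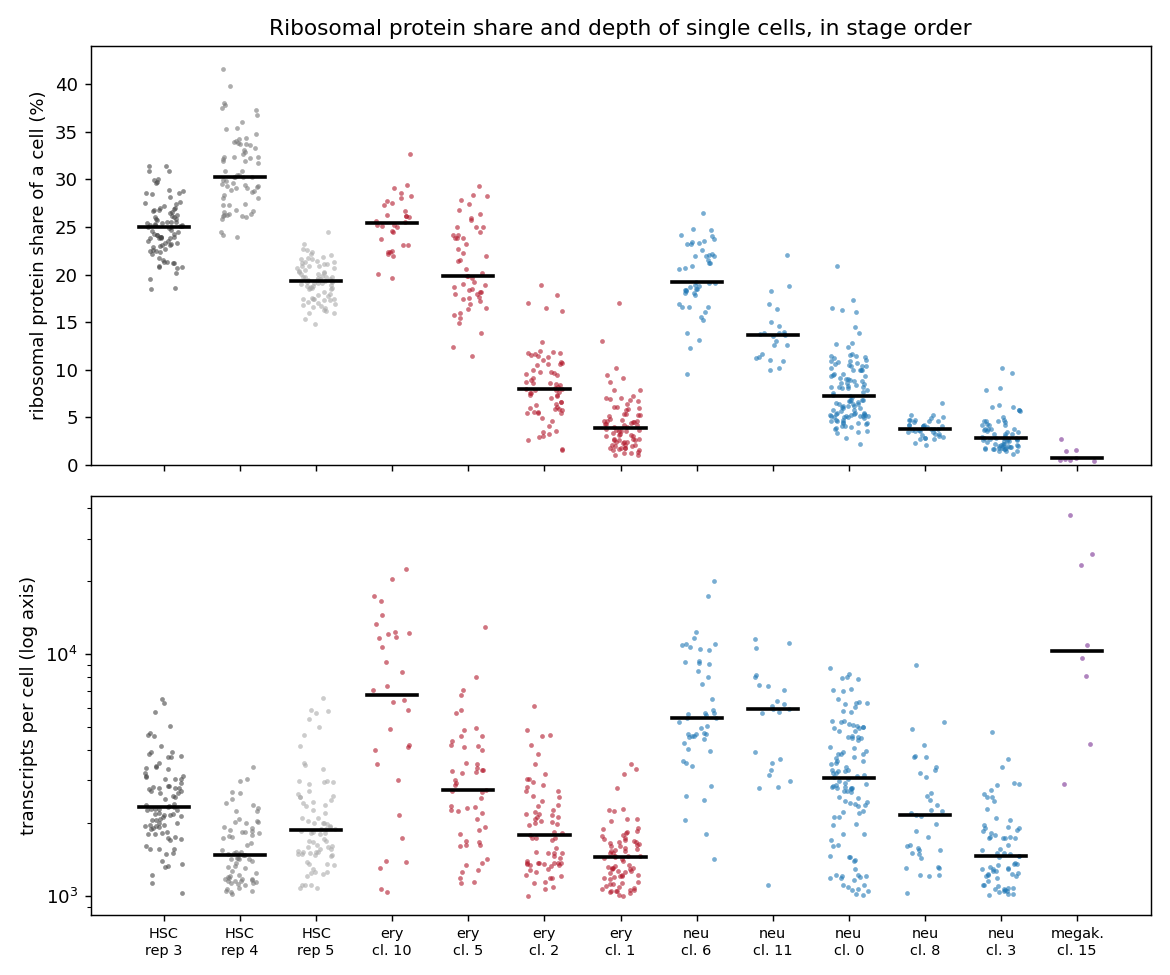
Upper panel: ribosomal protein share of each cell (y axis, %) by cluster in marker order for the erythroid and neutrophil lineages, with sorted HSC. Lower panel: total transcripts of the same cells (log axis). Median shares go from 25.4% to 3.89% along the erythroid clusters and from 19.2% to 2.87% along the neutrophil clusters, and median totals are lower in the late clusters as well.

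A share can be low because other transcripts are high, so the members were also set against spike-in RNA, synthetic RNA added to the wells, which only the authors' per-library values hold. This takes the amount of spike-in per well as equal. Within libraries, members per spike-in transcript were lower in late than in early erythroblast-like cells in 9 of 9 libraries, with a mean log2 ratio of −3.11 ± 0.91 (SD) and a median of 9.98-fold lower. All other transcripts were 3.85-fold lower by the same measure (−1.87 ± 0.57). From promyelocyte-like to myelocyte-like cells, members were 5.31-fold lower (median, −2.28 ± 0.34, lower in 10 of 10) and other transcripts 1.82-fold lower (−0.90 ± 0.21). From myelocyte-like to mature neutrophil-like cells, members were 4.34-fold lower (−2.16 ± 0.68, lower in 9 of 9) and other transcripts 2.43-fold lower (−1.24 ± 0.35). In each of these steps both quantities were lower per spike-in in the later class, and the members by more. Between early erythroblast-like and promyelocyte-like cells, members were 1.44-fold higher in the first (0.60 ± 0.67, lower in 1 of 7), which is less than the spread between libraries. Less RNA per cell and less efficient recovery from a well cannot be told apart here unless the spike-in was recovered alike.

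**Figure D3:**
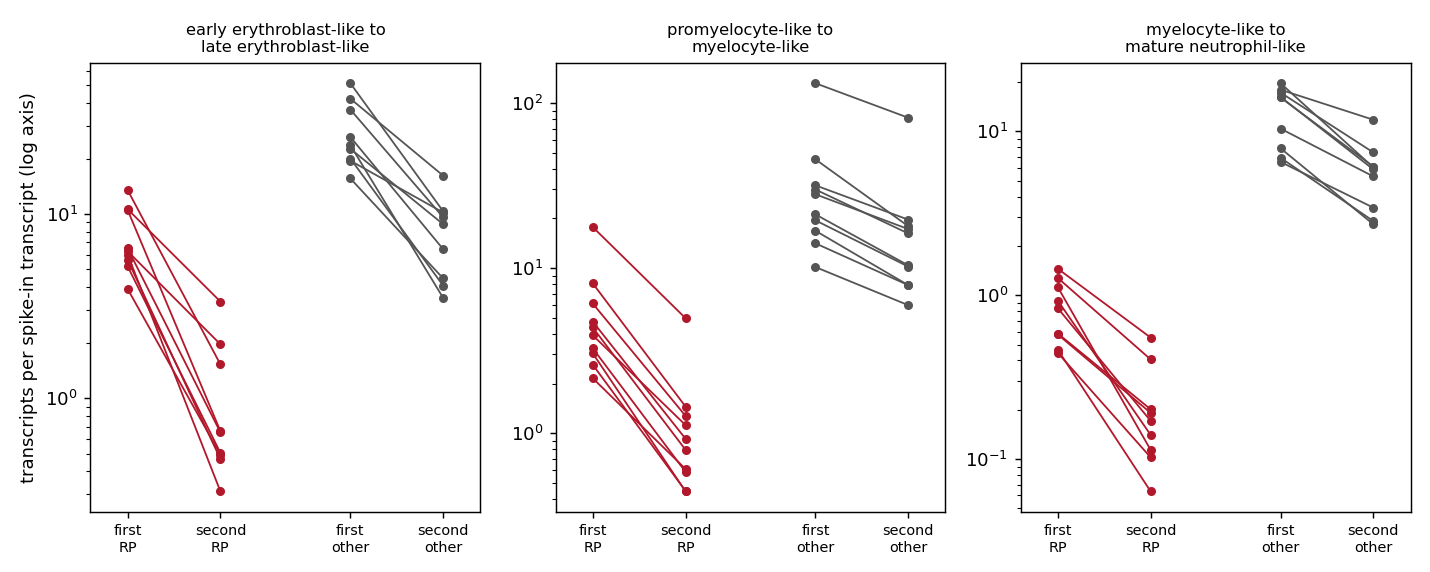
Member transcripts and all other transcripts per spike-in transcript (log y axis) for 3 steps of maturation. Each line joins the sums of a library, with at least 3 cells of both classes. Members are lower in the later class in every library of each step, by a median of 9.98-fold, 5.31-fold and 4.34-fold.

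Single members were tested on transcripts summed per library and class, with edgeR's quasi-likelihood test, the library as a block and Benjamini-Hochberg adjustment over all genes tested. A member was called at an adjusted p under 0.05. Log2 fold changes are relative to the TMM scaling, which centres on genes that change little, and levels are given as transcripts per 10,000.

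Late against early erythroblast-like cells could be compared in only 2 libraries with at least 5 cells of both. All 74 members tested had a negative log2 fold change, with a median of −1.08 against 0.03 over the 503 genes tested. Of these members, 5 were called lower (Rpl14, Rps27l, Rpl36, Rpl10a and Rpl12) and 0 higher. Over all genes, 5.57% were called lower. At an unadjusted p under 0.05, 21 members were lower, against 14.3% of all genes. The late sums lay below the early ones without overlap for 62 members, against 37.4% of all genes, with 2 sums in each class. With a minimum of 3 cells, chosen after seeing the data, 9 libraries held both classes. There, 71 of 72 members were called lower, with 39.2% of the 357 genes tested called lower. The median was −0.95 for the members, −0.10 over all genes and 0.33 over the genes outside the members. With DESeq2 in the 2 libraries, 3 of 71 members were called lower, against 1.82% of 220 genes, and without the library block 44 of 75, against 15.9% of 779 genes.

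Rpl14, of the large subunit, led this change: it had 4.08, 5.64 and 18.4 per 10,000 (lowest, median and highest of 9 libraries) in late cells and 22.5, 30.5 and 39.5 in early cells. The late values lay below all early values, and the log2 fold change was −1.71 ± 0.21 (SE, adjusted p = 8.14e-09, edgeR). Rpl10a (−1.39), Rpl32 (−1.39), Rpl36 (−1.36) and Rpl10 (−1.33) followed, all of the large subunit. The smallest changes were those of short proteins: Rpl41 (−0.32 ± 0.14, adjusted p = 0.0392), Rps29 (−0.43) and Rpl39 (−0.44 ± 0.22, adjusted p = 0.0672), the 1 member not called, followed by Rps3 (−0.53) and Rps3a1 (−0.60). Rpl41 had 48.4, 62.3 and 97.5 in late cells and 59.97, 95.2 and 141 in early cells, so its ranges overlapped. Yet coding length had a Spearman correlation of −0.0639 with the change over 72 members, and the 18 shortest members had a median of −0.95 and the 18 longest −0.96.

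The 5 members named above for their part in inherited or acquired anaemia, chosen for that role, were all called lower with the 3-cell minimum. There, 71 of all 72 members tested were called lower, so the call does not set these 5 apart. Rps19, of the small subunit, had 6.57, 14.99 and 21.5 per 10,000 in late and 20.2, 28.1 and 33.3 in early cells, lower in 9 of 9 libraries (−0.74 ± 0.18, adjusted p = 0.000503). Rpl11, which with Rpl5 can bind Mdm2, had 4.08, 12.98 and 31.0 against 26.1, 39.7 and 43.8 (−1.30 ± 0.21, adjusted p = 1.39e-06). Rpl5 had 5.25, 12.02 and 28.8 against 22.8, 32.4 and 42.3 (−1.02 ± 0.20, adjusted p = 2.24e-05). Rps14 had 1.63, 12.6 and 28.8 against 2.45, 24.5 and 42.7 (−0.80 ± 0.20, adjusted p = 0.000747), and Rpl35a 4.91, 13.4 and 29.8 against 14.8, 22.9 and 36.04 (−0.65 ± 0.22, adjusted p = 0.00912). For all 5 the highest late library exceeded the lowest early library. Within libraries, Rpl35a was lower in late cells in 7 of 9 and the other 4 genes in 9 of 9. With at least 5 cells, in 2 libraries, these genes were not called by edgeR. The adjusted p was 0.0756 for Rpl11, 0.158 for Rpl35a, 0.270 for Rpl5, 0.308 for Rps19 and 0.606 for Rps14.

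Myelocyte-like against promyelocyte-like cells gave the most uniform change. In 6 libraries, all 73 members tested were called lower, against 28.2% of the 556 genes tested. All 73 were lower in every library, which was not counted over all genes. Their median log2 fold change was −1.02, against 0.04 over all genes and 0.16 over genes outside the members, and 50 of 73 were lower without overlap between the classes, against 16.9% of all genes. Across the scalings, filters and class definitions tried, 63 to 73 members were called lower, without a count over all genes in those settings.

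**Figure D4:**
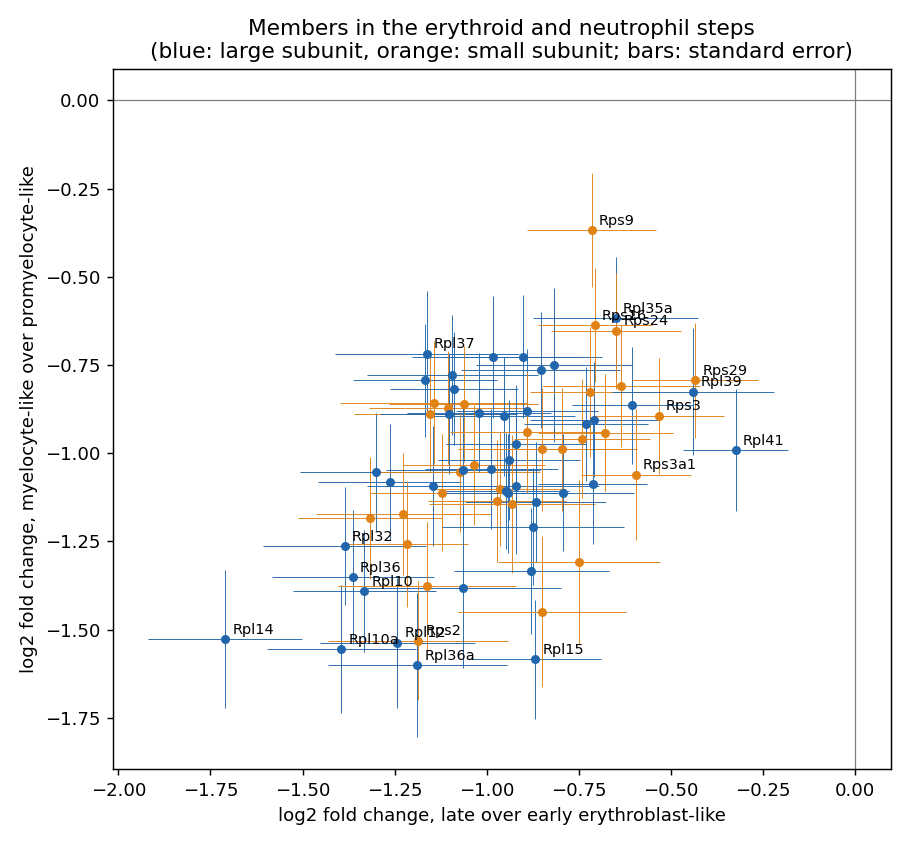
Log2 fold change of each member from early to late erythroblast-like cells (x axis, 9 libraries with at least 3 cells) and from promyelocyte-like to myelocyte-like cells (y axis, 6 libraries), with standard errors. All 72 members lie below 0 on both axes. Rpl14 lies far out on both axes, Rpl41 near 0 on the first and Rps9 near 0 on the second.

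The largest changes in this step were those of Rpl36a, Rpl15, Rpl10a, Rpl12 and Rps2. Rpl36a had 2.28, 3.23 and 3.77 per 10,000 in myelocyte-like and 7.86, 11.9 and 16.98 in promyelocyte-like cells (−1.60 ± 0.20, adjusted p = 2.55e-10). Rpl15, whose start carries the tract shown above, had 4.55, 6.17 and 8.43 against 16.04, 26.1 and 32.3 (−1.58 ± 0.17, adjusted p = 3.37e-13). Neither gene overlapped between the classes. Rpl10a (−1.56), Rpl12 (−1.54, part of the stalk base) and Rps2 (−1.53, at the mRNA entry side) were close behind.

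Rps9, which sits where mRNA enters the small subunit, changed least. It had 17.95, 19.7 and 22.2 in myelocyte-like and 28.8, 31.7 and 36.5 in promyelocyte-like cells, without overlap, and a log2 fold change of −0.37 ± 0.16 (adjusted p = 0.0460). As a part of the ribosomal protein total, Rps9 was 1.91% ± 0.314 in promyelocyte-like (n = 7), 3.03% ± 0.508 in myelocyte-like (n = 12) and 5.34% ± 2.46 in mature neutrophil-like cells (n = 7), and 1.92% ± 0.414 in late erythroblast-like cells (n = 10). Rpl35a (−0.62), Rps16 (−0.64), Rps24 (−0.65) and the stalk protein Rplp2 (−0.68) were the next smallest. Over the 72 members tested in both, the erythroid and neutrophil changes had a Spearman correlation of 0.444; the 2 steps use different cells of partly the same libraries.

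Mature neutrophil-like against myelocyte-like cells showed a further decline for many members. In 6 libraries, all 61 members tested had a negative log2 fold change, with a median of −0.90 against 0.28 over genes outside the members. Of these, 40 were called lower, against 27.4% of the 277 genes tested, and 0 higher. Only 32 of the 61 were lower in every library and 5 did not overlap between the classes. Neither was counted over all genes, so these counts do not set the members apart. The number called lower changed with the cells and genes taken: it was 0 with a minimum of 2000 transcripts, 25 without the deepest 5% of cells and 61 with no filter on low genes. It was 11 with a finer clustering and 11 with the values of the per-library files. Calls over all genes were not counted in these settings either.

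Rpl32, of the large subunit, led with 0, 1.49 and 6.75 per 10,000 in mature neutrophil-like and 6.56, 8.43 and 10.8 in myelocyte-like cells (−2.34 ± 0.42, adjusted p = 6.16e-05). Rps7 (−1.90), Rps20 (−1.86) and Rpl5 (−1.65) followed. Rps20, at 1.09, 1.77 and 6.74 against 7.55, 9.50 and 17.2, did not overlap. At the other end, Rpl37 (−0.19), the ubiquitin fusion gene Rps27a (−0.21), Rps9 (−0.30), Rps14 (−0.33) and Rpl17 (−0.34) were not called, with adjusted p from 0.207 to 0.654. Rps9 was again among the members with the smallest log2 fold changes, at 10.9, 17.1 and 18.4 in mature neutrophil-like and 18.3, 19.9 and 23.9 in myelocyte-like cells.

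Between the earliest cells of the erythroid and neutrophil lineages, members did not stand apart from other genes in the TMM-scaled test. Their share of transcripts, as given above, was higher in early erythroblast-like cells in 7 of 7 libraries, by 3.45 to 8.73 percentage points. In 7 libraries with at least 3 cells of both, 10 of 74 members were called higher in early erythroblast-like than in promyelocyte-like cells and 0 lower, a smaller share than the 18% of the 361 genes tested that were called higher. The median was 0.13, against 0.07 over all genes. The called members were Rplp1, Rps2, Rpl14, Rpl24, Rplp0, Rpl7, Rpl37, Rpl27a, Rpl41 and Rpl29. Scaling by library totals raised the number to 38, but there the median over all genes was 0.33 and that of the members 0.40. The 6 other settings that moved the count gave 0 to 6, without a count over all genes. Only the leading members are therefore described.

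The stalk proteins Rplp1 and Rplp0, which recruit the elongation factors to the large subunit, had 2 of the larger differences in this comparison. The other stalk protein, Rplp2, was not called (0.14 ± 0.29, adjusted p = 0.764, edgeR). Rplp1 had 50.3, 63.2 and 70.2 per 10,000 in early erythroblast-like and 20.8, 31.0 and 38.6 in promyelocyte-like cells (0.72 ± 0.13, adjusted p = 3.19e-05). Rplp0 had 57.8, 69.7 and 86.9 against 13.97, 41.6 and 52.6 (0.60 ± 0.14, adjusted p = 0.00117). They were the 2 members without overlap, where 5.82% of all genes were higher without overlap. Rps2 (0.69), Rpl14 (0.64) and Rpl24 (0.62) were higher in the early erythroblast-like sums of all 7 libraries. Among the lowest values, Rpl39 (−0.25), Rps29 (−0.20), Rps28 (−0.19) and Rpl38 (−0.18) were not called.

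Sorted HSC had higher levels of many members than promyelocyte-like cells. In 3 against 7 libraries, 51 of 76 members were called higher and 0 lower, with 22.7% of the 1403 genes tested called higher and a median of 0.79 against 0.05 over all genes. The HSC sums lay above the promyelocyte-like ones without overlap for 22 members, against 11.3% of all genes. Sorted and dissected cells never shared a library, so the class, the sort, the library and the sequencer cannot be told apart. The count was 25 without sorted replicate 4, the library with the highest share, 34 without replicate 3 and 58 without replicate 5. It was 0 with a minimum of 10 cells per sum, 5 with a minimum of 2000 transcripts and 7 with the finer clustering. The median stayed above 0 at 0.28 to 0.39 in these 3 settings, against 0.05 to 0.19 over all genes. Calls over all genes were not counted in any of the changed settings.

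Rps14 led with 35.6, 54.1 and 69.5 per 10,000 in HSC and 7.84, 21.9 and 25.5 in promyelocyte-like cells (1.57 ± 0.28, adjusted p = 3.14e-05). Rpl36 (1.52), Rps4x (1.46), Rplp2 (1.39) and Rplp1 (1.28) followed. Rps4x, the X-linked form of a small-subunit protein, had 35.8, 39.3 and 40.5 against 11.98, 15.99 and 20.8, without overlap. Among the lowest, Rps27l (−0.25), Rpl4 (−0.01), Rpl7a (0.06), Rpl27 (0.15) and Rps25 (0.15) were not called.

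Against early erythroblast-like cells, sorted HSC differed for few members when sums needed at least 5 cells. With 3 against 2 libraries, 5 of 77 were called higher (Rps14, Rplp2, Rps15a, Rps4x and Rps15) and 0 lower, where 20.2% of the 2931 genes tested were called higher. The median of the members was 0.32 and that of all genes 0.28, so the members did not stand apart at this minimum. Rps14 had 35.6, 54.1 and 69.5 in HSC and 2.45 and 19.6 in early erythroblast-like cells (2.35 ± 0.51, adjusted p = 7.47e-05). The lowest were Rps27l (−1.10), Rpl4 (−1.06), Rpl41 (−1.04), Rpl7a (−0.73) and Rpl24 (−0.70), none of them called. Rpl4, which lines the exit tunnel, had 29.9, 31.6 and 44.2 in HSC and 79.8 and 86.01 in early erythroblast-like cells. With at least 3 cells, in 3 against 10 libraries, 39 of 75 were called higher, against 22.1% of 756 genes, with a median of 0.74 against −0.03. This comparison and the one with promyelocyte-like cells share the HSC libraries.

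The 3 larger HSC libraries differed among themselves. Replicates 3, 4 and 5 had median cell shares of 25.01%, 30.3% and 19.3%, and the middle 50% of their cells lay at 23.1% to 26.7%, 28.0% to 33.6% and 17.7% to 20.8%, without overlap. Their median totals were 2324, 1476 and 1869 transcripts, and the part of depth in the result was not tested. Within a library the Spearman correlation of share with total was −0.077, −0.329 and −0.071, over 91, 72 and 80 cells that share the library. The transcripts of other genes in the median cell were 1769, 1013 and 1520.

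Single members differed widely in level, and these levels count molecules by their 3′ end, with no division by length. The highest means over all sums were those of Rps3a1 (55.5 per 10,000), Rpsa (52.4, also known as the laminin receptor), Rpl41 (45.1), Rps12 (41.1), Rpl4 (30.2) and Rplp0 (29.0). Rpl41, the shortest member, with at most 138 coding bases in any GENCODE vM21 transcript, had 124 ± 23.4 in early erythroblast-like (n = 2) and 62.7 ± 21.3 in late erythroblast-like cells (n = 10). It had 53.5 ± 18.7 in promyelocyte-like (n = 7), 52.5 ± 27.6 in HSC (n = 3) and 11.3 ± 7.78 in mature neutrophil-like cells (n = 7). It therefore formed 5.996% ± 2.57 of the ribosomal protein total in late erythroblast-like cells and 2.03% ± 0.629 in HSC. Rps12 had 118 ± 10.7 in early and 38.2 ± 15.5 in late erythroblast-like cells, 62.4 ± 21.5 in promyelocyte-like and 10.0 ± 4.65 in mature neutrophil-like cells.

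**Figure D5:**
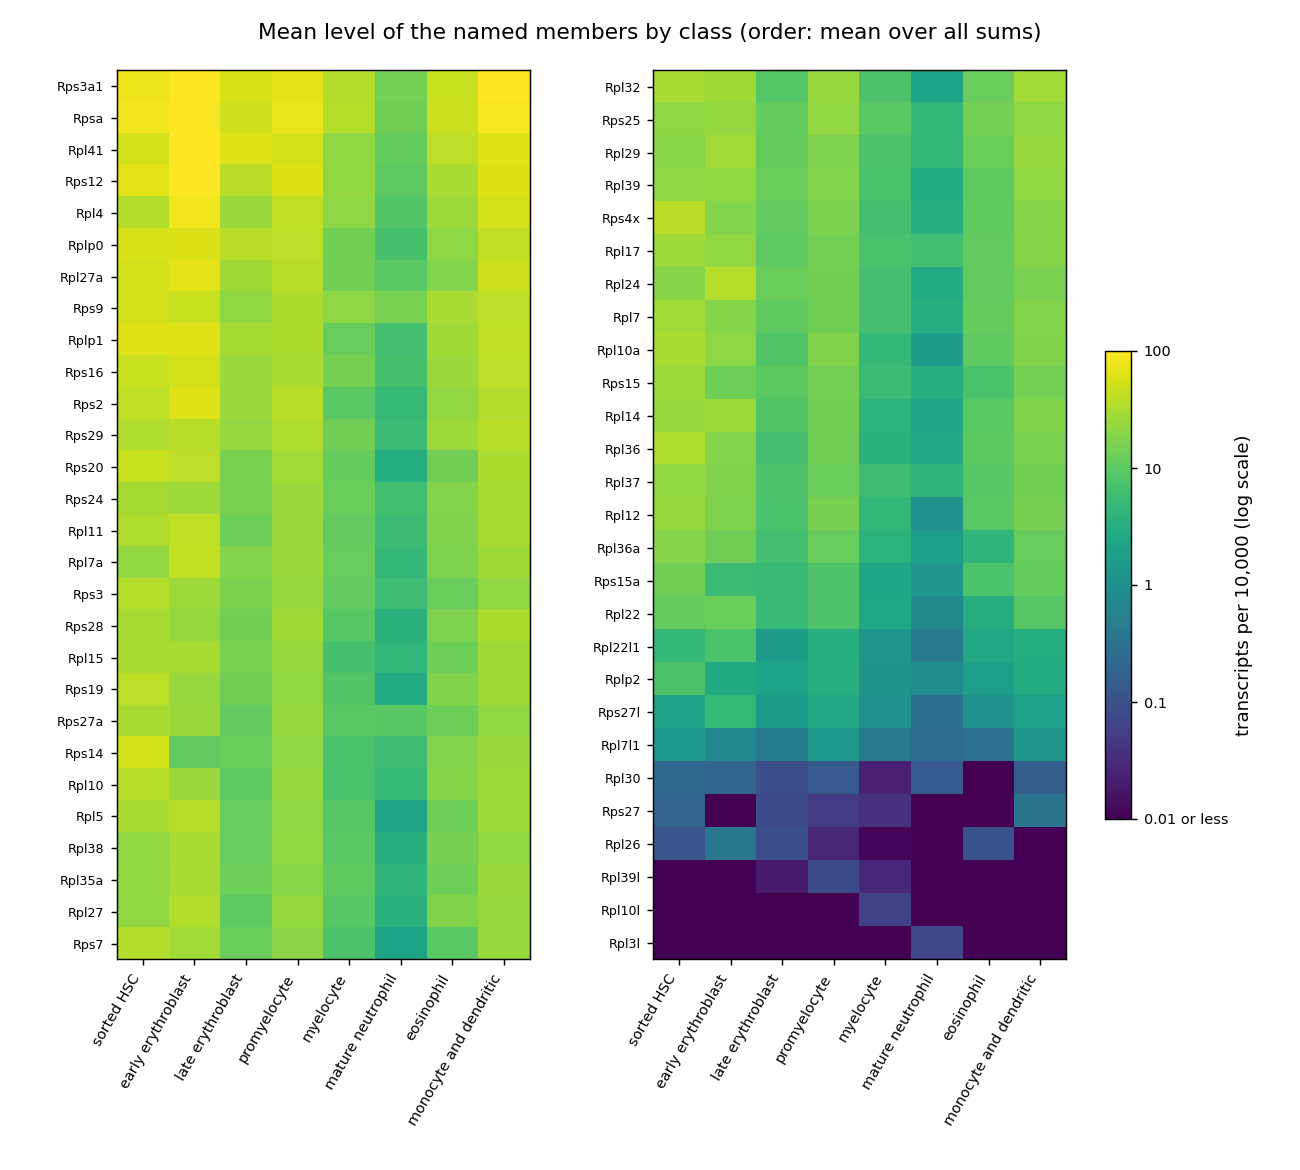
Mean level of the members named in the text (transcripts per 10,000) in each class, ordered by their mean over all sums. Rps3a1, Rpsa, Rpl41 and Rps12 lead, and levels are lower in myelocyte-like and mature neutrophil-like cells in most rows.

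The balance of the subunits moved little. The ratio of large-subunit to small-subunit transcripts was 1.24 ± 0.0995 in early erythroblast-like (n = 2), 1.24 ± 0.121 in late erythroblast-like (n = 10) and 1.16 ± 0.0410 in HSC (n = 3). It was 1.13 ± 0.0511 in promyelocyte-like (n = 7), 1.10 ± 0.0764 in myelocyte-like (n = 12) and 1.10 ± 0.0932 in mature neutrophil-like cells (n = 7). The ranges of libraries overlapped between neighbours in this order. Over 84 members, the make-up of the ribosomal protein total in each class had a Spearman correlation of 0.760 to 0.873 with that of HSC, lowest in mature neutrophil-like cells, whose median total of 1456 transcripts was also the lowest of these classes.

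Of the paralogs paired by name with a core member, Rpl3l, Rpl39l and Rpl10l were rare, but Rpl22l1, Rps27l and Rpl7l1 were not. Rpl22l1, which can stand in for Rpl22, gave 28.9% ± 3.28 of the Rpl22 and Rpl22l1 transcripts in HSC (n = 3), 28.7% ± 6.33 in promyelocyte-like (n = 7) and 25.7% ± 8.17 in late erythroblast-like cells (n = 5), counting libraries with at least 20 transcripts of the pair. In early erythroblast-like cells it gave 35.3% and 40.4% in the 2 libraries, within the range of promyelocyte-like libraries (23.7% to 42.4%). A copy of Rpl22l1, the row Gm15421, shared 61.8% of its 3′ end and held 590 transcripts against 842 for Rpl22l1, so these shares depend on how such reads were counted. Rpl7l1 gave 4.84% ± 1.29 of its pair with Rpl7 in HSC and 9.55% ± 4.53 in promyelocyte-like cells. Rpl3l, Rpl39l and Rpl10l had 4.01, 6.03 and 5.01 transcripts over all 952 cells.

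Some low counts belonged to members whose 3′ ends are repeated elsewhere in the genome. Rps27 (27.1 transcripts over all cells), Rpl26 (17.03) and Rpl30 (43.1) were rare, although each encodes a core protein. In GENCODE vM21, 0% of the last 300 bases of Rps27 were free of 50-base matches in other transcripts, 35.9% for Rpl26 and 19.1% for Rpl30. The gene row Gm12191, a copy of Rpl30, held 667 transcripts, and Gm15772, a copy of Rpl26, 14.03. Counting at such copies cannot be told apart from low expression here. Some members with the largest changes in the erythroid and neutrophil steps had such copies too. The part free of matches was 0% for Rpl36a and Rpl10, 10.8% for Rpl36 and 13.1% for Rpl10a. It was 20.3% for Rpl15, 21.9% for Rps2, 73.3% for Rpl32 and 100% for Rpl14 and Rpl12. Over 83 members, unique sequence and level had a Spearman correlation of 0.0687, and Rps27l, which made up 91.1% ± 1.70 of the Rps27 pair in HSC, rests on the same limit.

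Other translation genes were compared from fixed lists. Over all genes tested, 28.2% were called lower in the neutrophil step. In the erythroid step, 39.2% were called lower with the 3-cell minimum and 5.57% with 5 cells. Of the elongation factors and other TOP mRNAs, 7 of 9 tested were lower in myelocyte-like than in promyelocyte-like cells (Eef1a1, −1.24 ± 0.17, adjusted p = 3.50e-09; Eef2, Eef1b2, Eef1g, Naca, Pabpc1 and Tpt1), while Vim, an intermediate filament gene, was higher (1.11 ± 0.20, adjusted p = 1.22e-06). In late against early erythroblast-like cells with the 3-cell minimum, 8 of 10 were lower, led by Npm1 (−2.58 ± 0.25, adjusted p = 3.63e-11), and Pabpc1 was higher (0.55 ± 0.18, adjusted p = 0.00540). With 5 cells, 4 of 10 were lower (Npm1, Nap1l1, Eef1b2 and Eef1g) and Pabpc1 was not called (0.49, adjusted p = 0.650). In HSC against promyelocyte-like cells, 12 of 16 were higher and 0 lower, where 22.7% of all genes tested were called higher. The list summed to 227 ± 23.0 per 10,000 in HSC (n = 3), 147 ± 23.4 in promyelocyte-like (n = 7), 69.3 ± 11.6 in myelocyte-like (n = 12) and 53.9 ± 20.0 in mature neutrophil-like cells (n = 7).

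Ribosomal proteins that the symbol rule leaves out behaved variably. Gnb2l1, which encodes the ribosome-bound scaffold Rack1, was lower in the neutrophil step (−1.29 ± 0.17, adjusted p = 1.32e-09) and in the erythroid step with the 3-cell minimum (−1.19 ± 0.20, adjusted p = 2.42e-06), while with 5 cells it was not called (−1.11, adjusted p = 0.238). Fau, a fusion gene of the small subunit, was not called in the neutrophil step (−0.16 ± 0.16, adjusted p = 0.405) or in the erythroid step with 5 cells (−0.03, adjusted p = 0.969), and was lower with the 3-cell minimum (−0.52 ± 0.21, adjusted p = 0.0224).

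Genes of ribosome assembly were mostly too low to test within dissected cells. The 45 genes summed to 69.7 ± 6.74 per 10,000 in early erythroblast-like (n = 2), 17.5 ± 3.31 in late erythroblast-like (n = 10), 54.9 ± 6.18 in HSC (n = 3), 36.5 ± 7.89 in promyelocyte-like (n = 7) and 16.02 ± 4.30 in myelocyte-like cells (n = 12). Ncl (nucleolin, for rRNA synthesis) was the 1 gene tested in the step to myelocyte-like cells (−1.44 ± 0.29, adjusted p = 1.14e-05). In HSC, 5 of 12 were called higher than in promyelocyte-like cells (Fbl, Myc, Nop56, Nop58 and Rrp1) and 0 lower. Over all genes, 22.7% were called higher there. Against early erythroblast-like cells, 4 of 30 were higher and 4 lower, where 20.2% of all genes tested were called higher. The 76 mitochondrial ribosomal protein genes summed to 76.1 ± 13.97 in early and 32.99 ± 7.65 in late erythroblast-like cells, and to 53.3 ± 6.90 in promyelocyte-like and 30.9 ± 3.91 in myelocyte-like cells. Of them, 0 of 8 tested were called in HSC against promyelocyte-like cells. Initiation factors summed to 87.0 ± 10.8 in early and 67.5 ± 10.0 in late erythroblast-like cells; Eif1, which selects the start codon, was higher in late cells with the 3-cell minimum (0.77 ± 0.21, adjusted p = 0.00103) and not called with 5 cells (0.85, adjusted p = 0.307).

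Among the regulators, Eif2ak1, the haem-regulated kinase that slows translation in erythroid cells, was higher in late erythroblast-like cells, at 5.24 ± 2.91 per 10,000 (n = 10) against 1.37 ± 0.787 in early cells (n = 2). Its log2 fold change was 2.78 ± 0.69 (adjusted p = 0.00105) in 2 libraries and 2.09 ± 0.33 (adjusted p = 2.01e-06) in 9. Atf4, a stress transcription factor, was higher with the 3-cell minimum (1.44 ± 0.24, adjusted p = 2.07e-06) but not called with 5 cells (0.78, adjusted p = 0.202), and, in the neutrophil step, in myelocyte-like cells (0.59 ± 0.25, adjusted p = 0.0406). Of the 6 genes of ribosome rescue and recycling, 0 could be tested in any comparison, and they summed to 3.74 ± 1.59 in early and 2.91 ± 1.51 in late erythroblast-like cells.

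The genes outside the members whose share followed the ribosomal protein share most closely over 48 class and library sums were Rpl31-ps12 (Spearman rho 0.927), Gnb2l1 (0.906), Gm6402 (0.896), Eef1a1 (0.876) and Eef2 (0.849), among 73 genes tested in every comparison, whose median rho was 0.05. These sums share libraries. Rpl31-ps12 carries the name of a copy of a member.

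The members' values differed between the deposited versions of the data. All 707 dissected cells of the table were matched to a well of the per-library values, at a median correlation of 0.994 over genes outside the members. In the same wells, 58.0% of the member entries above 0 were higher in the table and 0 lower, against 11.1% of all entries. Summed member transcripts were 329893 in the table and 234327 in the per-library values, and the median cell share was 9.02% and 7.99%. The ratio of table to per-library value was 1.62 for Rpl41, 1.58 for Rplp1 and 1.07 for Rps27l, with a median of 1.38 over 77 members with at least 100 transcripts. How the versions came to differ is not given in the sources used here. With the per-library values of the same cells, 71 of 72 members were still called lower from promyelocyte-like to myelocyte-like cells. From early to late erythroblast-like cells with the 3-cell minimum, 70 of 72 were called lower. Calls over all genes were not counted with these values.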

How the data were processed

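Cells were measured with CEL-seq. Groups are the cell subtypes of the labels, and replicates were numbered by record order, which pairs nothing. Reads were aligned with BWA 0.6.2-r126 to mm10, per the submitters' processing notes; no annotation is given in the sources used here. Values in the deposited table are expected counts, which are transcript numbers corrected for tags drawn more than once among 256, and so are not whole. The authors' per-library files hold values of the same kind, with spike-in rows, and served as alternatives. The members and lists were chosen with earlier results of these data known.

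A cell needed 1000 transcripts. No doublet caller was run, because wells were filled by hand or by sort. Dissected cells were clustered without the members (scanpy 1.11.5, leidenalg 0.10.2, 2000 variable genes, 30 components, 15 neighbours, resolution 1, seed 1) and named from marker lists. Sums of at least 5 cells were rounded and tested with edgeR 4.0.16 in R 4.3.3 (TMM, filterByExpr, robust quasi-likelihood fit), with the library as a block within dissected cells. Early erythroblast-like against promyelocyte-like cells took 3 cells, because 1 library held 5 of both. The SE is approximate, the fold change (log2) divided by the root of F. The scripts were tested on simulated data.

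Members named are the 6 most abundant, the 5 highest and 5 lowest changes of each comparison, paralog pairs, members under 1 in 10000 of the ribosomal protein total and, outside that rule, 5 anaemia genes chosen for their role; some of them are not reported here. Replicate 18 of the dissected and replicate 2 of the sorted libraries were not analysed here. Positions of 83 members came from GENCODE vM21 (GRCm38). Alternatives were library totals, DESeq2 1.42.0, other filters, minimums and clusterings, no block and leaving out libraries.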

Additional observations from a re-analysis of the deposited data

How the results depend on the processing

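The decline from promyelocyte-like to myelocyte-like cells was called for 63 to 73 members in all 14 alternatives run. From early to late erythroblast-like cells, the number called lower, 5, was 15 with library totals, 3 with DESeq2, 0 with no filter on low genes, 11 with a minimum of 500 transcripts, 15 with TMM factors computed without the members and 44 with no library block. With 3 cells per sum it was 71, and then 72 with library totals, 72 with the other TMM factors and 70 with the per-library values. From myelocyte-like to mature neutrophil-like cells, 40 became 61 with no filter, 0 with a minimum of 2000 transcripts, 11 at resolution 2, 25 without the deepest 5% of cells and 11 with the per-library files. With a minimum of 2000 transcripts, Rps3a1 (0.0597) turned positive in this step, with an adjusted p of 0.883. Over all genes, the erythroid step had 5.57% called lower in the main fit and 1.82% with DESeq2. It had 15.9% with no library block and 39.2% with 3 cells per sum. For the other alternatives, calls over all genes were not counted, so those numbers do not set the members apart from other genes.

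Of early erythroblast-like against promyelocyte-like cells, 10 higher became 38 with library totals, 2 with no filter, 5 and 0 with minimums of 500 and 2000 transcripts, 1 at resolution 2, 4 without the deepest cells and 6 with no block, and 0 lower became 1 with no filter and 3 with a minimum of 500. Of HSC against promyelocyte-like cells, 51 higher became 28 with library totals, 20 with no filter, 5 with a minimum of 2000, 0 with 10 cells per sum and 7 at resolution 2, and 25 to 58 when a sorted replicate was left out. Of HSC against early erythroblast-like cells, 5 higher became 2 with DESeq2, 3 and 1 with minimums of 500 and 2000, 39 with 3 cells, and 3 to 20 when a sorted replicate was left out. There, 0 lower became 4 with library totals, 1 with DESeq2, 1 and 1 with the minimums and 0 to 2 without a sorted replicate. Apart from the 3-cell minimum, calls over all genes were not counted for these alternatives, so the numbers do not set the members apart. The causes were not tested.

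Library totals as scaling moved the median log2 fold change over all genes from 0.04 to −0.30 in the step to myelocyte-like cells, with the members at −1.36, and to −0.18 in the erythroid step, with the members at −1.30. The early erythroblast-like share was 20.4% from the per-library files and 21.5% with their values for the same cells, the monocyte and dendritic-like share 14.5% and 15.5%. The promyelocyte-like share was 20.8% with a minimum of 2000 transcripts, 20.8% at resolution 2 and 14.2% with the per-library values. The myelocyte-like share was 8.15% without marker genes in the total, 5.74% at resolution 2 and 5.84% as a median over cells. Leaving out a library moved the HSC share between 22.0% and 27.6%, that of early erythroblast-like cells between 24.3% and 25.8%, of eosinophil-like cells between 10.1% and 13.1% and of monocyte and dendritic-like cells between 19.6% and 20.3%.

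No paired analysis by replicate number was made because the numbers come from the order of the records; classes were paired by library, as the block and in the within-library values. Some settings left too few libraries: in the erythroid step a minimum of 2000 transcripts, 10 cells per sum, the deepest cells left out, and the per-library files; with 10 cells per sum also 3 other comparisons, and HSC against early erythroblast-like cells without the deepest cells. Leaving 1 of 2 libraries out of the erythroid step left no error to test with. Low members could not be tested at this depth, and the classes hold few cells per library.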
